A study of Mus musculus with 6 samples.

Results

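AMP-activated protein kinase (AMPK), the energy sensor of the cell, and the kinases that switch it on were followed in mouse podocytes kept in high glucose with or without fibroblast growth factor 1 (FGF1). The genes are *Prkaa1*, *Prkaa2*, *Prkab1*, *Prkab2*, *Prkag1* and *Prkag2*, which encode the subunits of AMPK, and *Stk11* and *Camkk2*, which encode its upstream kinases. The genes were chosen by symbol in the deposited table, where the 8 genes are 8 of 24469 loci. Had a symbol held several rows, the row with the highest mean over the 6 libraries would have been taken, but each of the 8 symbols held 1 row, named for that gene alone, so no measured value chose a row. The list as a whole was selected on results already seen. The FPKM changes of *Prkaa1* and *Prkaa2* were known when the genes were listed. Their tests are therefore a description of these libraries and not independent evidence.

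The libraries came from MPCs, a conditionally immortalized mouse podocyte line grown with interferon gamma at 50 U/mL and differentiated without it for 10 days. All cells were starved of serum for 12 h and then kept for 12 h in 25 mM glucose. The 3 groups of 2 libraries are HG, which received high glucose and no pretreatment, HG after 1 h with 100 ng/mL of recombinant wild-type FGF1 (rFGF1WT), and HG after 1 h with 100 ng/mL of rFGF1ΔHBS, a mutant of FGF1 that binds heparan sulfate poorly and is less mitogenic. No library from normal glucose was analysed here, so the effect of glucose itself was not measured, and nothing in the labels says that the 2 libraries of a group came from separate cultures, so the p-values measure the spread between libraries, which may be technical.

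AMPK works as a complex of 3 subunits. The α subunit carries the kinase, the β subunit holds the complex together and binds glycogen, and the γ subunit binds AMP, ADP and ATP. Falling energy lets LKB1, encoded by *Stk11*, phosphorylate the α subunit, and calcium does so through CaMKK2. Active AMPK turns off fat, sterol and protein synthesis and turns on fatty acid oxidation, mitochondrial biogenesis and autophagy, and in diabetic kidney its activity is known to be low. The measurements below are of mRNA and carry no information on phosphorylation or kinase activity.

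Levels were in FPKM, fragments per kilobase of exon scaled to the fragments of the library. This is a level per length, so that genes can be compared with each other. The table gives no fragment totals. The steps between its lowest values gave an estimate of 22.3 M to 23.2 M fragments per library, a span within which depth hardly differed between groups. The estimate is rough, as 32.5% to 38.8% of the low values lay within 0.03 of a whole fragment where an even spread would give 6%. Of the podocyte markers, *Cd2ap* (51.3 to 76.2 FPKM), *Actn4*, *Podxl* and *Synpo* were present, *Nphs1* lay between 0.618 and 0.942 FPKM, and *Wt1* and *Ptpro* were at or near 0. All 4 endothelial markers summed to at most 0.164 FPKM in any library. The proximal tubule list, of which 3 of 4 genes had a row and 2 a mean of at least 1 FPKM, summed to 61.7 and 73.4 FPKM in HG, 44.2 and 47.6 with rFGF1WT and 40.5 and 49.8 with rFGF1ΔHBS. Nearly all of it came from *Lrp2* and *Aqp1*, with *Slc5a2* at no more than 0.0883. The sum was lower with both proteins, as *Prkaa1* was, and its part in that result was not tested. The mesangial list, with 2 of 4 genes at a mean of at least 1 FPKM, summed to 34.2 and 35.0 FPKM in HG and to 29.3 to 30.6 FPKM with the proteins. Most of it was *Pdgfrb*, at 31.8 and 32.7 FPKM in HG and 26.1 to 27.5 with the proteins. *Gata3* went the other way, from 2.30 and 2.17 FPKM in HG to between 2.73 and 3.10. The macrophage list summed to 50.2 and 53.2 FPKM in HG and to 63.2 to 67.3 FPKM with the proteins, nearly all of it from a row that merges *Cd68* with *Eif4a1*, while *Ptprc*, *Adgre1* and *Itgam* stayed at or below 0.0548 FPKM. The part of these 2 lists in the results was not tested either.

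The results turned on the catalytic subunits. *Prkaa1* (ENSMUSG00000050697) lies on the plus strand at chr15:5143861-5181899 and *Prkaa2* (ENSMUSG00000028518) on the minus strand at chr4:105029874-105109890, in GENCODE annotation of GRCm38. Each had 1 transcript in its locus, of 4655 and 7969 nucleotides, each with 9 exons. Their RefSeq promoters (GRCm38.p6), the 250 bases before the annotated start, are printed below because these 2 genes for the same subunit moved in different ways. Capitals mark every match, on either strand, to the GC box GGGCGG, the letters bound by Sp1-type factors.
Prkaa1, chr15:5143611-5143860, plus strand: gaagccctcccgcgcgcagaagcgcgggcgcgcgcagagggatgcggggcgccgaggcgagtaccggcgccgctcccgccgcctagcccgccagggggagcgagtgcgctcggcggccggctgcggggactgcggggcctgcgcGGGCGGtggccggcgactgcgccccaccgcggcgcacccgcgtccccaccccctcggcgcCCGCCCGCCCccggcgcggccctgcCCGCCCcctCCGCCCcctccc
Prkaa2, chr4:105109899-105110148, minus strand: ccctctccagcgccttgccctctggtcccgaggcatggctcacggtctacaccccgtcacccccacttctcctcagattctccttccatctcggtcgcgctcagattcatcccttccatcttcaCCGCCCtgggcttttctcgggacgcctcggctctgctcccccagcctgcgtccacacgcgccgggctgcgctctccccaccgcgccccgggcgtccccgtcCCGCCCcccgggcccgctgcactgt

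The *Prkaa1* window was 85.2% G or C with 45 CpG and held 5 GC boxes, of which a pair overlaps by 2 bases. The *Prkaa2* window was 70.0% G or C with 24 CpG and held 2. Among all 32536 distinct promoter windows of this length the median was 52.4% G or C with 6 CpG, and 33.0% held a GC box. The letters of 7 other motifs were searched on both strands, namely the E-box CACGTG (in 6.04% of all windows), the ETS motif CCGGAAG (6.95%), the CRE TGACGTCA (1.56%), the AP-1 motif TGANTCA (6.73%), the FOXO motif TGTTTAC (3.17%), the TATA box TATAAA (12.3%) and the CCAAT box (33.8%), and these windows of *Prkaa1* and *Prkaa2* held none of them. A match or its absence describes the letters of a window only.

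*Prkaa1*, the gene of the α1 catalytic subunit, fell to under 50% of its HG level with both proteins. It was measured at 21.3 and 20.98 FPKM in the HG libraries, at 9.02 and 10.7 with rFGF1WT and at 10.0 and 9.22 with rFGF1ΔHBS. The HG libraries stood well above the other 4, which overlapped each other. The mean went from 21.1 ± 0.239 FPKM (SD, n = 2) in HG to 9.86 ± 1.19 with rFGF1WT, a 2.14-fold lower level, and to 9.61 ± 0.552 with rFGF1ΔHBS, a 2.20-fold lower level. These levels stood for an estimated 938 to 2278 fragments per library, for a counting error of 2.10% to 3.27%.

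On the scale of log2(FPKM + 1), the change of *Prkaa1* was -1.03 (SE 0.0967, adjusted p = 0.0172 in limma over all 10562 loci with a mean of at least 1 FPKM) with rFGF1WT and -1.06 (SE 0.0967, adjusted p = 0.0175) with rFGF1ΔHBS. Between the proteins the difference was -0.030, with a 95% interval from -0.29 to 0.23. Both comparisons with HG share the HG libraries. The direction held in all 15 alternative analyses of each comparison, but the adjusted p reached 0.0863 with rFGF1WT and 0.0826 with rFGF1ΔHBS. The call with rFGF1WT passed an adjusted p of 0.05 in 8 of the 15 and was lost without HG replicate 1 (0.0863) or 2 (0.0750), without rFGF1WT replicate 1 (0.0504) and without rFGF1ΔHBS replicate 1 (0.0526) or 2 (0.0525). With the libraries scaled to equal median ratios, the change with rFGF1WT was -0.99, at an adjusted p of 0.0184 in limma. This was just short of the 2-fold limit as applied to log2(FPKM + 1), a scale on which the change is smaller than in FPKM. The call with rFGF1ΔHBS passed in 10 of the 15 and was lost without HG replicate 1 (0.0826) or 2 (0.0757) and without rFGF1ΔHBS replicate 1 (0.0706) or 2 (0.0766). With 2 libraries against 2, an exact two-sided permutation test of a single gene cannot give a p below 0.333.

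*Prkaa2*, the gene of the α2 catalytic subunit, rose with the mutant and stayed near its HG level with the wild-type protein. Its levels were 1.24 and 1.25 FPKM in HG, 1.07 and 1.42 with rFGF1WT, and 4.58 and 4.06 with rFGF1ΔHBS. The rFGF1ΔHBS libraries lay far above all others, and the HG libraries lay between those with rFGF1WT. Every library was above 1 FPKM, so that no group alone carried the gene past the filter on low levels. The rFGF1ΔHBS mean of 4.32 ± 0.366 FPKM was 3.47-fold the HG mean of 1.24 ± 0.00933 and 3.46-fold the rFGF1WT mean of 1.25 ± 0.248. The estimated fragments numbered 191 to 257 in the HG and rFGF1WT libraries and 732 to 847 with rFGF1ΔHBS, for counting errors of 3.44% to 7.24%.

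For *Prkaa2* the log2 change was 1.24 with rFGF1ΔHBS against HG (SE 0.114, 95% interval 0.94 to 1.55, adjusted p = 0.0175 in limma) and -0.0018 with rFGF1WT against HG (interval -0.31 to 0.31, adjusted p = 0.995). The test of rFGF1ΔHBS against rFGF1WT gave 1.25 (SE 0.114, interval 0.94 to 1.55) with an adjusted p of 0.0473. Both comparisons of the mutant kept their sign in all 14 alternative analyses, where the values ranged from 1.17 to 1.71 against HG and from 1.13 to 1.72 against rFGF1WT. The adjusted p of the mutant against the wild-type protein stayed under 0.05 in only 2 of these 14 and ranged from 0.0469 to 0.221, with 0.0614 to 0.154 when any 1 of the 6 libraries was left out. Against HG it stayed under 0.05 in 9 of the 14 and was lost without HG replicate 1 (0.0795) or 2 (0.0738) and without rFGF1ΔHBS replicate 1 (0.0769) or 2 (0.0690).

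**Figure D1:**
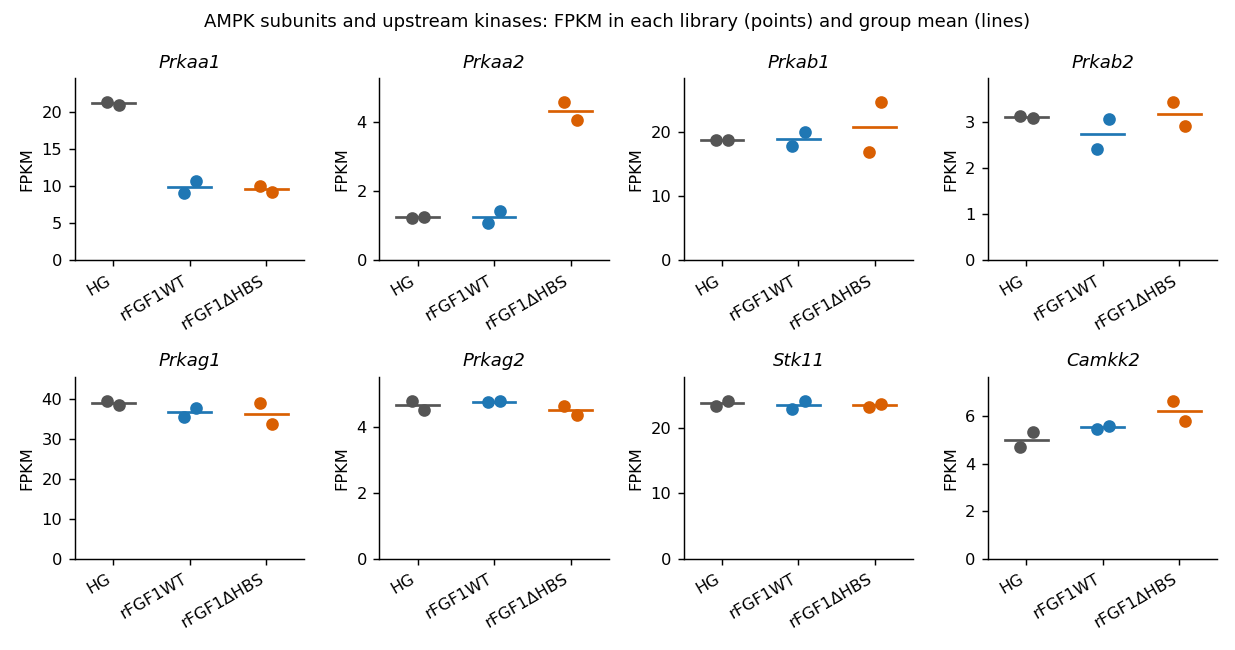
FPKM of each of the 8 genes in the 6 libraries, with 1 panel per gene, a point per library, a line at each group mean and a vertical axis that starts at 0. *Prkaa1* is near 21 FPKM in HG and between 9.02 and 10.7 with either protein, *Prkaa2* stands apart only in the rFGF1ΔHBS libraries (4.06 and 4.58), and the other 6 genes did not pass the test.

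The β subunits did not pass the test in any comparison. *Prkab1*, the gene of the β1 scaffold, was measured at 18.6 and 18.7 FPKM in HG, 17.8 and 20.0 with rFGF1WT, and 16.9 and 24.6 with rFGF1ΔHBS. The last pair enclosed all other libraries, and the log2 change was 0.014 with rFGF1WT (interval -0.49 to 0.52) and 0.12 with rFGF1ΔHBS (interval -0.38 to 0.63). *Prkab2*, the gene of the β2 scaffold, was the scarcer isoform at 3.13 and 3.10 FPKM in HG, 2.42 and 3.07 with rFGF1WT, and 3.43 and 2.91 with rFGF1ΔHBS. The rFGF1WT libraries lay below those of HG by a narrow gap, and the rFGF1ΔHBS libraries overlapped both groups. Its log2 change was -0.14 (interval -0.47 to 0.19) with rFGF1WT and 0.019 (interval -0.31 to 0.35) with rFGF1ΔHBS. The intervals of *Prkab1* are the widest of the 8 genes and leave room for changes of about 0.63 on the log2 scale.

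The γ subunits also did not pass. *Prkag1*, the gene of the γ1 nucleotide sensor, had the highest level of the 8 genes at 39.5 and 38.4 FPKM in HG, 35.5 and 37.8 with rFGF1WT, and 38.8 and 33.6 with rFGF1ΔHBS. Its rFGF1WT libraries lay just below those of HG, and the mutant libraries overlapped both groups. *Prkag2*, the gene of the γ2 sensor, was at 4.81 and 4.53 FPKM in HG, 4.75 and 4.81 with rFGF1WT, and 4.66 and 4.37 with rFGF1ΔHBS. The libraries of *Prkag2* with the mutant lay below those with rFGF1WT and overlapped HG. The log2 changes of *Prkag1* were -0.086 (interval -0.32 to 0.15) and -0.11 (interval -0.34 to 0.13), and those of *Prkag2* were 0.028 (interval -0.15 to 0.21) and -0.041 (interval -0.22 to 0.14), with rFGF1WT and rFGF1ΔHBS in turn. *Prkag3*, the gene of the third γ isoform, was at 0.0118 and 0.0242 FPKM in HG and listed at 0 in the other 4 libraries.

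Of the upstream kinases, *Stk11* was the steadiest of all 8 genes. LKB1 mRNA was at 23.3 and 24.1 FPKM in HG, 22.8 and 24.2 with rFGF1WT, and 23.2 and 23.7 with rFGF1ΔHBS, and the 3 groups overlapped. Its log2 change was -0.014 with rFGF1WT (interval -0.16 to 0.13) and -0.015 with rFGF1ΔHBS (interval -0.16 to 0.13), the narrowest intervals among the genes. *Camkk2* was at 4.72 and 5.33 FPKM in HG, 5.47 and 5.60 with rFGF1WT, and 6.67 and 5.81 with rFGF1ΔHBS. Each group lay above the one before without overlap, but the log2 change of 0.26 with rFGF1ΔHBS (SE 0.0940, unadjusted p = 0.0434) had an adjusted p of 0.186 in limma, and that of 0.12 with rFGF1WT an adjusted p of 0.491.

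Counted together, 1 of the 8 genes passed the limits of an adjusted p under 0.05 and a 2-fold change with rFGF1WT, where 1.01% of all loci tested did, 2 of 8 with rFGF1ΔHBS (0.899% of all loci) and 1 of 8 between the proteins (0.350% of all loci). The genes that passed were the catalytic ones in each case, and no other member passed on the adjusted p alone. The changes of *Prkaa1* and *Prkaa2* were known when the genes were listed, so these counts cannot be read as an excess over all loci. The medians of the 8 log2 changes were -0.0077, 0.0019 and 0.053 in these comparisons, beside -0.040, -0.036 and 0.0050 over all loci. Libraries of the groups did not overlap for 4, 3 and 3 of the 8 genes, beside the 58.2%, 57.3% and 34.5% of all loci for which this held.

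**Figure D2:**
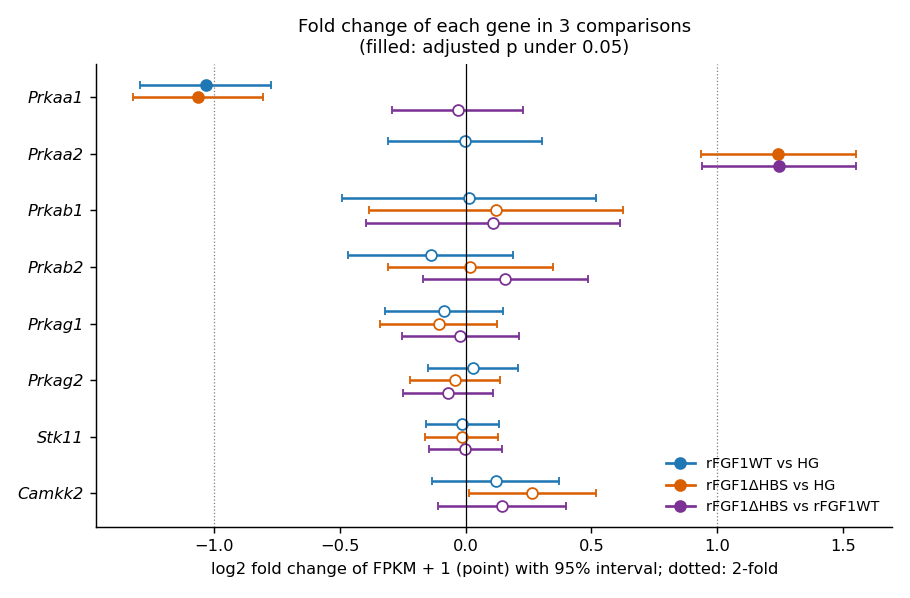
Log2 fold change of FPKM + 1 of each gene in the 3 comparisons, with 95% intervals from the limma fit and dotted lines at 2-fold. Filled points have an adjusted p under 0.05, and they are *Prkaa1* with both proteins (-1.03 and -1.06) and *Prkaa2* with rFGF1ΔHBS against HG (1.24) and against rFGF1WT (1.25).

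Because FPKM are per length, the isoforms of each subunit could be added up. The summed α subunits came to 22.6 and 22.2 FPKM in HG, 10.1 and 12.1 with rFGF1WT, and 14.6 and 13.3 with rFGF1ΔHBS. The 3 groups did not overlap, and the rFGF1ΔHBS libraries lay between the others. *Prkaa2* contributed 5.56% ± 0.0986 (SD, n = 2) of the α mRNA in HG, 11.2% ± 0.787 with rFGF1WT and 31.0% ± 0.583 with rFGF1ΔHBS. With rFGF1WT the share was higher while the mean of *Prkaa2* itself was 1.25 FPKM beside 1.24 in HG. *Prkaa1* was 17.0 ± 0.319 times as abundant as *Prkaa2* in HG, 7.96 ± 0.631 times with rFGF1WT and 2.23 ± 0.0607 times with rFGF1ΔHBS. These sums and shares were not tested.

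The β sums overlapped between all groups, and the γ sums with rFGF1WT lay just below those in HG. The β subunits summed to 21.8 ± 0.00698 FPKM in HG, 21.6 ± 2.04 with rFGF1WT and 23.9 ± 5.05 with rFGF1ΔHBS, and *Prkab2* held between 10.6% and 16.9% of them in every library. The γ subunits summed to 43.6 ± 1.02, 41.4 ± 1.63 and 40.7 ± 3.92 FPKM, of which *Prkag2* held 10.6% to 11.8%. In HG the α and β sums were nearly equal, with 1.04 and 1.02 α per β, and this ratio was 0.4997 and 0.525 with rFGF1WT and 0.717 and 0.483 with rFGF1ΔHBS. In each group the sum of the γ subunits was the highest of the 3 classes, from 1.93 to 3.99 times that of the α subunits. As in any bulk measurement, fewer cells of a kind and less RNA per cell cannot be told apart.

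**Figure D3:**
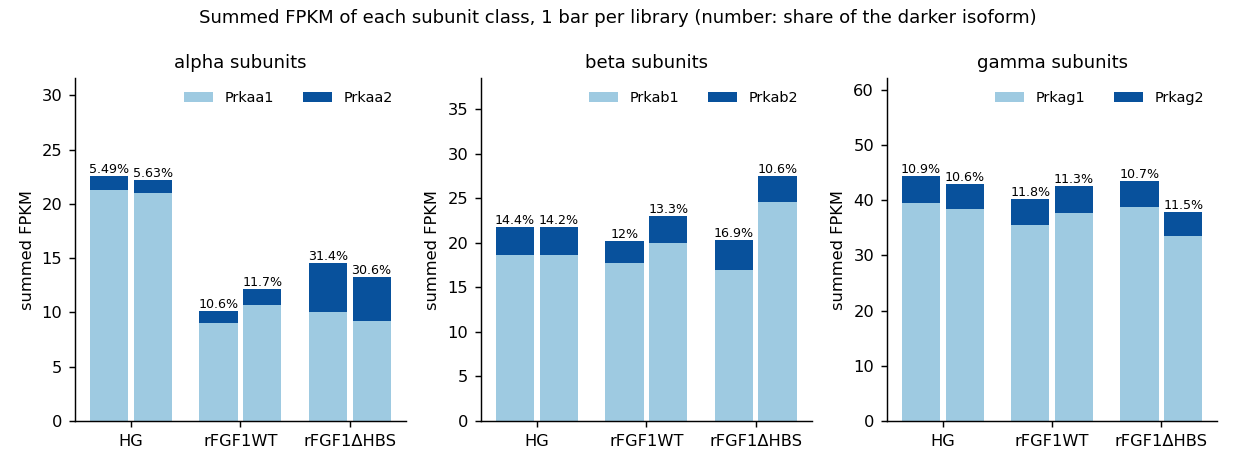
Summed FPKM of the α, β and γ subunits in each of the 6 libraries, 1 stacked bar per library from a base of 0, with the share of the scarcer isoform printed above. The α bars are lower with both proteins, and the dark *Prkaa2* part grows from 5.49% and 5.63% in HG to 31.4% and 30.6% with rFGF1ΔHBS, while the β and γ bars differ less between groups.

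In the genome, none of the coding genes nearest to *Prkaa1* and *Prkaa2* that were tested passed in any comparison. The neighbours were looked up after the values of *Prkaa1* and *Prkaa2* had been seen. *Ttc33*, 3626 bp beyond *Prkaa1* on the same strand, was at 6.93 and 4.79 FPKM in HG, 6.09 and 4.99 with rFGF1WT, and 5.51 and 4.72 with rFGF1ΔHBS, and *Rpl37* on the other side ranged from 74.2 to 110.0 FPKM with overlapping groups. Beside *Prkaa2*, *Plpp3* ranged from 12.0 to 17.6 FPKM with overlapping groups and *Fyb2* was at no more than 0.0651 FPKM. In every group replicate 1 was the higher for *Ttc33* and *Rpl37*, and replicate 2 for *Plpp3*. Whether same-numbered libraries share an effect on these loci was not tested. No coding gene of the annotation overlapped *Prkaa1* or *Prkaa2*.

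Among 10211 named loci above 0 in all libraries, those whose log2(FPKM + 1) ran closest to *Prkaa1* over the 6 libraries were *Sord* (Pearson r = 0.999), the sorbitol dehydrogenase of the polyol pathway, *Erbb3*, a receptor of the EGF receptor family (r = 0.999), and *Slc4a4*, a sodium bicarbonate cotransporter (r = 0.999). *Sord* nearly traced *Prkaa1*, at 22.8 and 21.9 FPKM in HG, 9.30 and 10.7 with rFGF1WT and 10.3 and 9.45 with rFGF1ΔHBS. Closest to *Prkaa2* were *Nrf1*, a transcription factor for respiratory chain genes (r = 0.988), *Fam207a* (r = 0.985) and *Kctd9* (r = 0.982). *Fam207a* went from 7.02 and 7.03 FPKM in HG and 6.82 and 8.06 with rFGF1WT to 17.9 and 20.8 with rFGF1ΔHBS, whereas *Nrf1* moved only from 3.36 and 3.41 to 3.81 and 3.72 with the mutant. These r values describe 6 points in 3 groups and were not tested, since the best of many loci will always be high.

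The rest of the AMPK pathway was described by 7 lists holding 69 genes, of which 62 were tested. With rFGF1WT, 1 gene rose and 4 fell at an adjusted p under 0.05 (8.06% of those tested, beside 6.19% of all loci), and with rFGF1ΔHBS 1 rose and 3 fell (6.45%, beside 6.26%). Between the proteins none passed in limma, where 0.549% of all loci did. The count at an unadjusted p under 0.05 was 2 of the 62, beside 514 of all 10562 loci. The median log2 change over the 62 was -0.15 with either protein, beside -0.040 and -0.036 over all loci, and 0.0022 between the proteins, beside 0.0050. None passed the 2-fold limit.

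Among regulators of AMPK, 2 of 7 genes tested passed with rFGF1WT and 1 of 7 with rFGF1ΔHBS. *Sesn2*, the stress-induced sestrin 2 that promotes AMPK activity and restrains mTORC1, rose from 10.0 and 9.90 FPKM in HG to 14.4 and 13.2 with rFGF1WT (log2 change 0.43, adjusted p = 0.0458) and 14.8 and 15.8 with rFGF1ΔHBS (0.57, adjusted p = 0.0261). The other sestrin genes had lower means with both proteins and did not pass. *Sesn1* averaged 15.7 FPKM in HG, 10.4 with rFGF1WT and 10.7 with rFGF1ΔHBS, and *Sesn3* averaged 12.1, 10.6 and 10.9. *Flcn*, folliculin, which with its partners FNIP1 and FNIP2 binds AMPK, fell from 17.6 and 18.1 FPKM to 12.6 and 12.0 with rFGF1WT (-0.50, adjusted p = 0.0258). With rFGF1ΔHBS it was at 16.0 and 14.9 FPKM (-0.19, adjusted p = 0.156), and the difference between the proteins, 0.31, had an adjusted p of 0.417. *Fnip1* was at 13.0 and 13.6 FPKM in HG and between 9.99 and 11.8 with the proteins and did not pass. The calls of *Sesn2* and *Flcn* were each lost when any 1 of the 6 libraries was left out, with an adjusted p between 0.0564 and 0.155.

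LKB1 works in a complex with a STRAD and an MO25 protein, encoded by *Strada* or *Stradb* and *Cab39* or *Cab39l*. None of these 4 genes passed. *Cab39* was at 12.6 and 5.60 FPKM in HG, 14.4 and 13.4 with rFGF1WT, and 16.5 and 14.0 with rFGF1ΔHBS, and *Map3k7*, which encodes TAK1, another kinase proposed upstream of AMPK, showed the same split of the HG libraries at 25.8 and 11.6 FPKM beside 27.0 to 29.1 with the proteins. For both, HG replicate 2 was the low one. *Strada* shares its row with *Ccdc47*, so its level is that of a merged locus. Of the 10 AMPK-related kinases tested, the other kinases that LKB1 switches on, none passed with either protein, and their median log2 changes were -0.19 and -0.17.

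One of 20 substrates tested passed with each protein. It was *Hdac5*, a class IIa histone deacetylase that AMPK sends out of the nucleus, which fell from 9.92 and 10.3 FPKM in HG to 6.34 and 6.33 with rFGF1WT (-0.60, adjusted p = 0.0251) and 5.14 and 5.76 with rFGF1ΔHBS (-0.78, adjusted p = 0.0175). *Ulk1*, the kinase that starts autophagy, was at 24.7 and 26.1 FPKM and at 17.8 to 20.1 with the proteins (adjusted p = 0.0870 and 0.0620). *Acaca*, acetyl-CoA carboxylase, overlapped between HG and rFGF1WT and did not pass with either protein. With rFGF1ΔHBS it was at 13.1 and 12.4 FPKM, above the 12.0 and 10.8 of HG. *Foxo3* was at 19.8 and 19.9 FPKM in HG, 16.0 and 15.7 with rFGF1WT and 12.6 and 7.17 with rFGF1ΔHBS (-0.98 with the mutant, adjusted p = 0.106).

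Of the 8 mTORC1 genes, *Deptor*, an inhibitor of mTOR, fell from 4.14 and 4.19 FPKM to 2.10 and 2.38 with rFGF1WT (-0.67, adjusted p = 0.0235) and 2.34 and 2.37 with rFGF1ΔHBS (-0.62, adjusted p = 0.0271), while *Mtor* itself stayed between 12.1 and 13.5 FPKM and did not pass. Of the 11 genes tested from the oxidation programme, *Acadm*, the medium-chain acyl-CoA dehydrogenase of fatty acid oxidation, fell from 26.7 and 27.5 FPKM to 16.9 and 16.7 (-0.66, adjusted p = 0.0134) and 17.2 and 16.4 (-0.66, adjusted p = 0.0143). *Ppargc1a*, the coactivator of mitochondrial biogenesis, was at 2.05 and 1.59 FPKM in HG and at 0.535 to 0.800 with the proteins without passing (-0.75 and -0.76, adjusted p = 0.0654 and 0.0621). The calls of *Hdac5* and *Deptor* were lost when any 1 of the 6 libraries was left out, with an adjusted p between 0.0518 and 0.110. Those of *Acadm* were lost without any 1 library of HG or of the protein compared, with an adjusted p between 0.0535 and 0.0662.

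**Figure D4:**
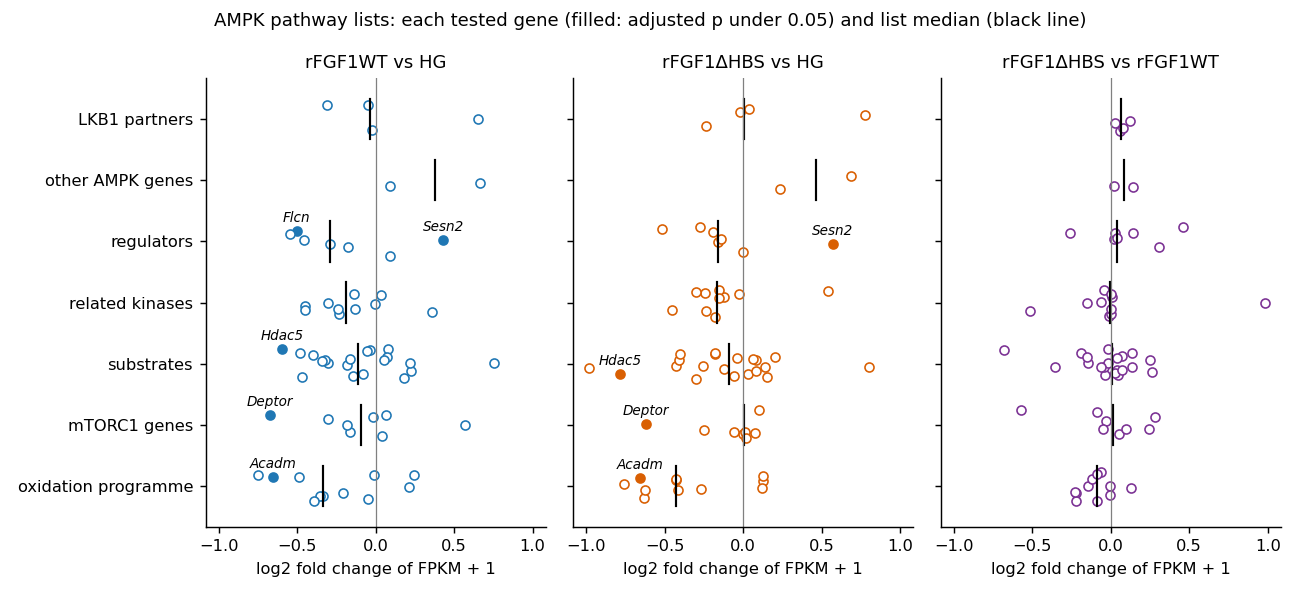
Log2 fold change of FPKM + 1 of every tested gene of the 7 lists in the 3 comparisons, with list medians as black lines and scatter within a list for legibility only. Filled and named points have an adjusted p under 0.05, with 5 for rFGF1WT, 4 for rFGF1ΔHBS and none between the proteins, and *Sesn2* is the one that rose.

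In the deposited table, 104 loci other than the 8 genes carry the KEGG label of AMPK signalling, a set taken up after the results were seen. Of its 82 tested loci, 6 had an adjusted p under 0.05 with rFGF1WT, 3 higher and 3 lower (7.32%, beside 6.19% of all loci), 9 with rFGF1ΔHBS, 3 higher and 6 lower (10.98%, beside 6.26%), and none between the proteins. There, 5 of the 82 had an unadjusted p under 0.05 in limma, beside 514 of all 10562 loci. The 1 locus that also passed the 2-fold limit, with either protein, was *Ccnd1*, the gene of cyclin D1 (log2 change 2.70 with rFGF1WT and 2.73 with rFGF1ΔHBS), named after its values were seen.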

How the data were processed

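RNA was sequenced from 6 libraries in 3 groups of 2. The deposited table holds FPKM per locus, which the authors made before deposit; the labels name HISAT2 2.0, StringTie 1.3.0, Bowtie 0.12.2 and build mm8 without saying what each was used for, and the study states that edgeR summarized the FPKM. The values keep no read counts, so no count test was run. Positions are from the GENCODE annotation of GRCm38, which holds 99.6% of the listed transcript identifiers, since the table has no coordinates. limma 3.58.1 (R 4.3.3) was fitted to log2(FPKM + 1) of all 6 libraries, with a variance trend, over the 10562 loci with a mean of at least 1 FPKM, with Benjamini-Hochberg adjustment over all of them. A fold change on this scale understates that of low genes. A call needed an adjusted p under 0.05 and a 2-fold change, the limits of the study; list genes were also judged on the adjusted p alone. On simulated data, 172 of 200 changed loci (86.0%) of 10562 were recovered for rFGF1ΔHBS against HG among 173 called, and for rFGF1WT against HG, where no locus had been changed, 0 were called. The simulated noise was normally distributed. The changes put in were larger than those of *Prkaa1* and *Prkaa2* in the main fit, and only loci with a higher mean level than *Prkaa2* received them. The recovery of changes like those of these 2 genes was therefore not measured.

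The genes, lists and tests were chosen with earlier results of these data known. The text names all 8 genes, each list gene with an adjusted p under 0.05 in any comparison with examples that did not pass, and the 3 loci closest to *Prkaa1* and to *Prkaa2*. *Tcf21* and *Slc34a1* were not analysed here. Alternatives were another pseudocount (0.1), other filters, scalings, fits and the omission of each library.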

Additional observations from a re-analysis of the deposited data

Results flagged for a closer look

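Among the 8 genes, *Prkaa2* stood out by the direct test of the mutant against the wild-type protein. In that comparison 0.549% of all loci tested had an adjusted p under 0.05 in limma. The FPKM change of *Prkaa2* was known when the genes were listed, so this is a description only. The log2 change of *Prkaa2* was 1.25 between rFGF1ΔHBS and rFGF1WT, with both mutant libraries (4.58 and 4.06 FPKM) above both wild-type libraries (1.07 and 1.42 FPKM). No other of the 8 genes and none of the tested list genes had an adjusted p under 0.05 in that comparison. The adjusted p, 0.0473 in limma, stayed under 0.05 in 2 of 14 alternative analyses.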

How the results depend on the processing

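*Prkaa1* kept its direction under all 15 alternatives against HG, and *Prkaa2* under all 14 in both comparisons of the mutant; what changed was mostly the side of the threshold. Over all loci, the calls against HG with rFGF1ΔHBS went from 95 to 151 with a pseudocount of 0.1. With a filter at a mean of 5 FPKM, which drops *Prkaa2*, the calls with rFGF1WT went from 107 to 69 and those between the proteins from 37 to 18, and of the 8 genes 1 was called with rFGF1ΔHBS and 0 between the proteins.

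Between the proteins, the log2 change of *Prkaa2* was 1.72 with a pseudocount of 0.1 (adjusted p = 0.0698), 1.25 without a filter (0.119) or with only the 4 libraries compared (0.139), and 1.24 with median-ratio scaling (0.0510) or quantile normalization (0.0566), so that 0 of the 8 genes were then called. Median-ratio scaling also left 0 called with rFGF1WT, and moved the HG sums of the α, β and γ subunits to 21.8, 21.2 and 42.5 FPKM. With only the 4 libraries compared, *Prkaa1* was at -1.03 with rFGF1WT (0.0524) and 0 genes were called. List genes passing numbered 3 without a filter with rFGF1WT and 1 with either protein with only the 4 libraries compared.

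Over all loci, same-numbered libraries did not deviate together (r of deviations -0.021, 0.098 and -0.047 for the pairs of groups). This cannot show whether they were prepared together, which the labels do not say, as a shared effect on some loci could go unseen. The tested neighbours of *Prkaa1* and *Prkaa2* kept the same replicate order in every group. With the replicate number as a block, the calls over all loci were 39 with rFGF1WT, 36 with rFGF1ΔHBS and 6 between the proteins. None of the 8 genes (0) and 0 list genes then passed against HG. The log2 changes were those of the main fit, and the adjusted p in limma rose. *Prkaa1* was at -1.03 with rFGF1WT (0.0700) and -1.06 with rFGF1ΔHBS (0.0737). *Prkaa2* with rFGF1ΔHBS was at 1.24 against HG (0.0737) and 1.25 against rFGF1WT (0.221).

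When each library was left out in turn, *Prkaa1* ranged from -1.14 to -0.92 with rFGF1WT and from -1.12 to -1.01 with rFGF1ΔHBS, and *Prkaa2* from 1.17 to 1.31 against HG and from 1.13 to 1.36 against rFGF1WT. Of the 8 genes, 0 to 1 were called with rFGF1WT, 0 to 2 with rFGF1ΔHBS and 0 between the proteins, where the calls over all loci ranged from 43 to 103, and 0 to 1 list genes passed in each comparison. A group left with 1 library was taken to vary like the others.

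Changes near 0 crossed it. Against HG with rFGF1WT, *Prkaa2* was at 0.022 with median-ratio scaling and 0.045 with quantile normalization, *Stk11* at 0.026 with median-ratio scaling, and the ranges without a library were -0.11 to 0.11 for *Prkaa2*, -0.067 to 0.095 for *Prkab1*, -0.0079 to 0.064 for *Prkag2* and -0.053 to 0.026 for *Stk11*. With rFGF1ΔHBS, *Stk11* was at 0.019 with median-ratio scaling and *Prkag2* at 0.0012 with quantile normalization, with ranges of -0.13 to 0.38 for *Prkab1*, -0.071 to 0.11 for *Prkab2* and -0.037 to 0.0066 for *Stk11*. Between the proteins, *Stk11* was at 0.0060 with quantile normalization, with ranges of -0.14 to 0.082 for *Prkaa1*, -0.15 to 0.37 for *Prkab1*, -0.12 to 0.082 for *Prkag1* and -0.041 to 0.038 for *Stk11*. The cause of the changes was not tested. The libraries, at 2 a group, and the low level of *Prkaa2* limit the precision.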
